A study of Mus musculus with 16 samples.

Results

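The mitochondrial fatty acid oxidation enzymes described here were chosen by gene symbol, as every probe whose platform annotation names Acaa2, Acadm, Acadl, Acadvl, Acads, Hadha, Hadhb, Hadh, Cpt1a or Cpt2. Of these 10 genes 9 were measured, by 17 of the 25697 probes, and Hadha is not analysed here. RNA came from cultured fibro/adipogenic progenitors (FAPs) of skeletal muscle, the mesenchymal progenitors that can form fibroblasts and adipocytes, taken from mice of the Balb/cJ strain. The 4 groups were Il4ra-/- (knockout) cells given recombinant interleukin-4 (IL-4), knockout cells given vehicle, wild-type cells given IL-4 and wild-type cells given vehicle. The knockout lacks the IL-4 receptor alpha chain, through which the cytokine IL-4 signals. Each group had 4 Illumina MouseRef-8 v2.0 arrays, which the series calls biological replicates. Sample titles number the knockout arrays 1 to 4 under both treatments. The wild-type arrays are numbered 1 to 4 with vehicle and 5 to 8 with IL-4. Whether knockout arrays of the same number share a source is not stated. The sources used here do not state whether the arrays came from separate mice, the mice's age or number, or the dose and duration of IL-4, so p-values measure the spread between these samples.

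Fatty acids reach the mitochondrial matrix as carnitine esters, through carnitine palmitoyltransferases on the outer and inner membranes. Inside, beta-oxidation shortens the acyl chain step by step: acyl-CoA dehydrogenases, each with its own range of chain lengths, start every round, a hydratase and a hydroxyacyl-CoA dehydrogenase follow, and a thiolase splits off acetyl-CoA. In cell culture models these enzymes increase as progenitors turn into adipocytes, which FAPs can do.

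Levels below are read as log2 values, with an array minimum of 7.72, a median of 7.85 on every array and a maximum of 14.77. Folds hold under that reading, and levels of different probes cannot be compared with each other. The brightest probe stood for a gene, and where a gene had other probes their differences follow. Of the 9 measured genes 7 averaged at least 8.5, while Cpt1a and Hadh lay within 0.15 of the array minimum, as did 57.0% of all probes, and changes there are compressed. Il4ra had no probe by that name, which left the genotype labels without a check by that gene. Of 14 measured FAP markers 0 lay near the minimum, and Pdgfra, the receptor that marks FAPs, averaged 10.40. Of the other cell types' markers, 7 of 10 myogenic, 8 of 10 leukocyte and 7 of 9 endothelial genes lay near it, among them Pax7, Ptprc and Pecam1. Arrays of a group correlated at 0.994 to 0.998. Knockout vehicle arrays 2 and 3 stood apart on the third principal component, which held 5.39% of the variance, at -6.95 and -7.52, against -3.14 to 4.77 for the other arrays. Counts that use these arrays, and the named differences among them that passed, are given with and without them.

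RefSeq promoter windows (build GRCm38.p6, 250 bases before to 50 after the start of the gene) were found for 9 of the 10 genes, Hadha included. The windows of Cpt2, Acadvl and Acadm are printed 5′ to 3′ on the gene's own strand because these genes carry the largest responses or the contrasting patterns described below. Capitals mark matches on either strand to AGGTCA, the hexamer read by many nuclear receptors, or to TTCNNNGAA, a palindrome of STAT factors.
Cpt2 (chr4:107923540-107923839, minus strand): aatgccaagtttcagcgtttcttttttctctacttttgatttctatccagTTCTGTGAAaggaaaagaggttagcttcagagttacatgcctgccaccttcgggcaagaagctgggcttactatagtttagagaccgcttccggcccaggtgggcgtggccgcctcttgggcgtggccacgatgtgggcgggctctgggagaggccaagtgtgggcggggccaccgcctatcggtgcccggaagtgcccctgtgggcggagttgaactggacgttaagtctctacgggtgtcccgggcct
Acadvl (chr11:70015379-70015678, minus strand): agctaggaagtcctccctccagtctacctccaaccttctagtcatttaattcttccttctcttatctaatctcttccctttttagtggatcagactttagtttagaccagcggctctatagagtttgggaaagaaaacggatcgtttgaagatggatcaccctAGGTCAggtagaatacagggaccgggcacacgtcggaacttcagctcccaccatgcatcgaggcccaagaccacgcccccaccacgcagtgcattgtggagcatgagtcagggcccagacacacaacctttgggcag
Acadm (chr3:153944594-153944893, minus strand): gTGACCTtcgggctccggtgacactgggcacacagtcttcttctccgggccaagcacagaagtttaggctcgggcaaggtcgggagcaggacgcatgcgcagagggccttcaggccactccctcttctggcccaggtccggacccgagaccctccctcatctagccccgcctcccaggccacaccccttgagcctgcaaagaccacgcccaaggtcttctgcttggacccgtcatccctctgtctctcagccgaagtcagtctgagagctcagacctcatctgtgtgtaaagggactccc

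AGGTCA was found on either strand in 3 of the 9 windows (Acadm, Acadvl and Cpt1a), against 16.3% of 32851 mouse promoter windows of the same length. The longer form AAGGTCA, which holds AGGTCA within it, was in the Acadm window alone, against 4.72% of all windows. Both matches in Acadm are the same site, read on the opposite strand at position -249. The direct repeat of 2 such hexamers with 1 base between them was in 0 of 9, against 0.0396%. TTCNNNGAA was in 3 of 9 (Cpt2, Hadha and Hadhb), against 8.30%, while the wider palindrome with 4 bases between the same arms, which STAT6 reads, was in 0 of 9, against 6.95%. The windows of Hadha and Hadhb, the head-to-head genes of the trifunctional protein, share 228 bases, and their TTCNNNGAA matches are the same site (chr5:30155128-30155136), so the 3 windows hold 2 separate sites. GGGCGG, the GC box, was in 7 of 9, against 35.7% of all windows. G and C made up 50.7% of the Acadvl window and 57.3% to 70.3% of the others. The median over all windows was 52.7%, so the GC box shares compare windows of unlike base content. These matches describe letters in the windows and were not tested as sites.

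**Figure D1:**
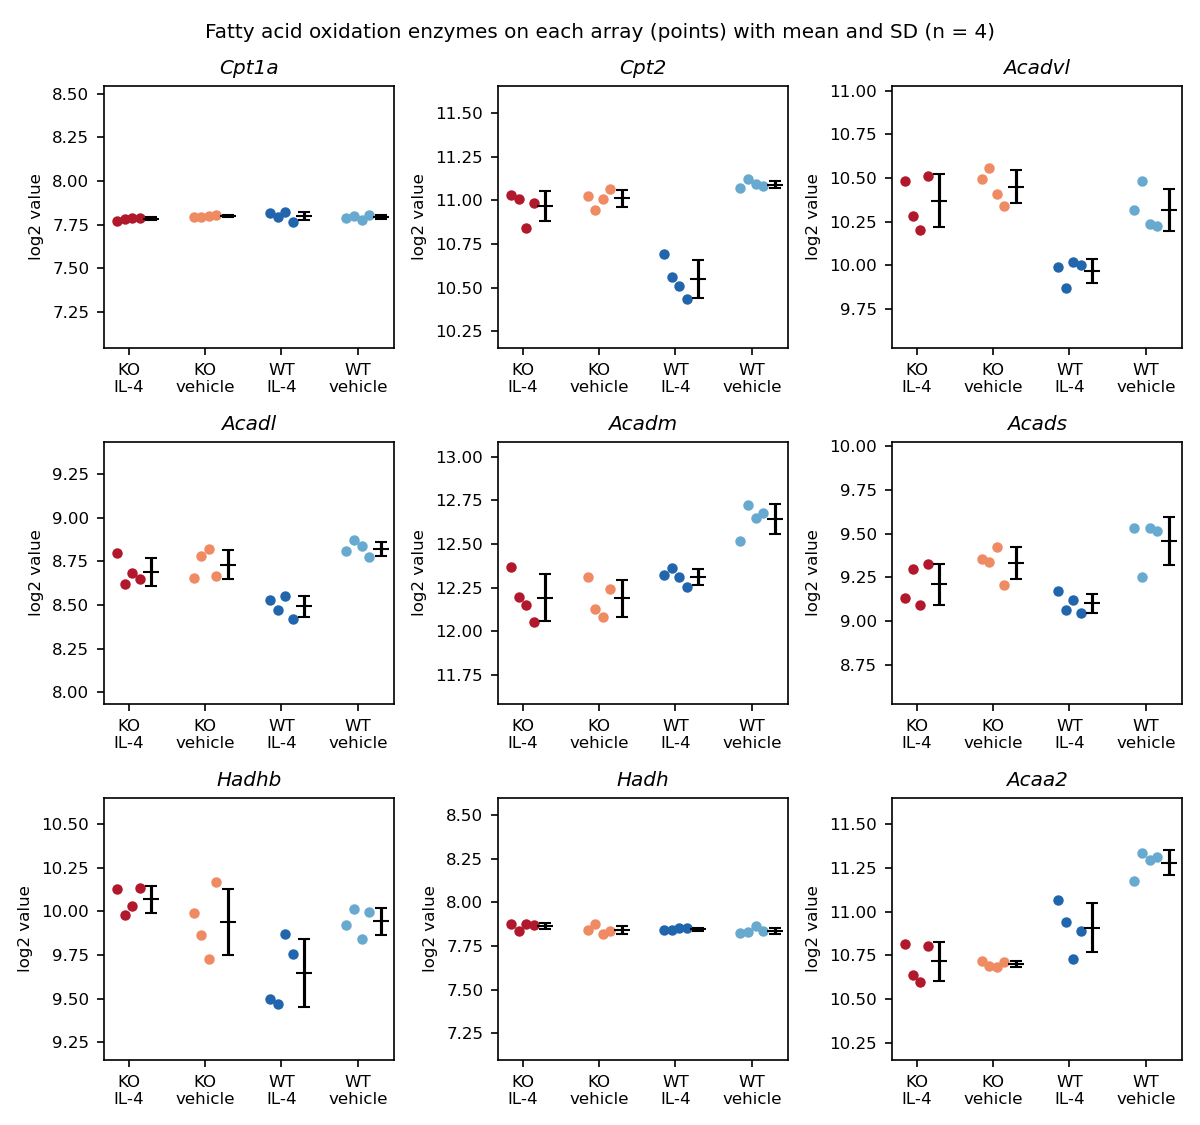
Log2 value of each measured enzyme's brightest probe on each of the 16 arrays (points), with the group mean and SD (bars, n = 4), for knockout (KO) and wild-type (WT) FAPs given IL-4 or vehicle. All panels span the same height; WT IL-4 arrays lie below WT vehicle arrays without overlap for Cpt2, Acadvl, Acadl, Acadm, Acads and Acaa2, and Acaa2 and Acadm are also low in both KO groups.

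The effect of IL-4 on these genes was read first in wild-type cells, which carry the receptor. Of the 9 measured enzymes, 6 fell and 0 rose with IL-4 at an adjusted p under 0.05 in limma. Over all 16593 genes, 8.79% fell and 7.14% rose, and among the 3885 genes averaging at least 8.5, 24.8% fell. Of the 7 enzymes at that level 6 fell, or 85.7%. The median log2 difference was -0.33 over the 9 enzymes, against -0.0016 over all genes. Over the 7 brighter enzymes it was -0.35, against -0.03 over the brighter genes. The 6 enzymes that fell were also those whose groups did not overlap, which 10.5% of all genes did in this direction. On the log2 scale 5 of the falls lay between 0.33 and 0.37, and that of Cpt2 was 0.54.

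Of the 2 carnitine palmitoyltransferases only Cpt2 gave levels well above the array minimum. Cpt2, the inner-membrane carnitine palmitoyltransferase that turns acylcarnitines back into acyl-CoA, had 10.69, 10.56, 10.51 and 10.43 on the wild-type IL-4 arrays, against 11.07, 11.12, 11.09 and 11.08 on the wild-type vehicle arrays. Every IL-4 array was below every vehicle array. The knockout arrays had 11.03, 11.01, 10.84 and 10.98 with IL-4, against 11.02, 10.94, 11.01 and 11.07 with vehicle. These 8 values overlapped with each other and lay above all 4 wild-type IL-4 arrays. In wild-type cells Cpt2 fell to 0.687 of the vehicle level, a log2 difference of -0.54 ± 0.05 (SE; limma adjusted p = 1.63e-06). In knockout cells the difference was -0.04 ± 0.05 (adjusted p = 0.953). Cpt1a, the outer-membrane enzyme of liver type and the regulated entry step, lay between 7.77 and 7.82 on all 16 arrays, so no change of it could be measured.

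The acyl-CoA dehydrogenases differ in the chain length they take. Acadvl, the membrane-bound very-long-chain enzyme, had 9.99, 9.87, 10.02 and 9.9997 on the wild-type IL-4 arrays, against 10.32, 10.49, 10.24 and 10.22 on the wild-type vehicle arrays. The groups were apart, and Acadvl fell to 0.786 of the vehicle level (log2 difference -0.35 ± 0.07, limma adjusted p = 0.00408). On the knockout arrays it had 10.48, 10.29, 10.20 and 10.51 with IL-4, against 10.50, 10.56, 10.41 and 10.34 with vehicle, which overlapped (-0.08 ± 0.07, adjusted p = 0.935).

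Acadl, the long-chain enzyme, had 8.53, 8.47, 8.55 and 8.42 on the wild-type IL-4 arrays, against 8.81, 8.87, 8.84 and 8.77 on the wild-type vehicle arrays. All IL-4 values were lower, and the log2 difference was -0.33 ± 0.04 (limma adjusted p = 9e-05). Its other probes differed by -0.13 and -0.02 and did not pass, the dimmer of them at 7.83 near the array minimum. The knockout arrays had 8.80, 8.62, 8.68 and 8.65 with IL-4, against 8.66, 8.78, 8.82 and 8.66 with vehicle. All 8 knockout values lay above the wild-type IL-4 values.

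Acadm, the medium-chain enzyme, had 12.32, 12.36, 12.31 and 12.25 on the wild-type IL-4 arrays, against 12.52, 12.73, 12.65 and 12.68 on the wild-type vehicle arrays. It fell by 0.33 ± 0.06 on the log2 scale, to 0.795 of the vehicle level (limma adjusted p = 0.00203), with groups that did not overlap. Its other, dimmer probe differed by -0.06 (adjusted p = 0.724). The knockout arrays had 12.37, 12.20, 12.15 and 12.05 with IL-4, against 12.31, 12.13, 12.08 and 12.24 with vehicle. In contrast to Acadl, the knockout values overlapped with those of wild-type cells given IL-4, and all 8 lay below every wild-type vehicle value.

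Acads, the short-chain enzyme, had 9.17, 9.06, 9.12 and 9.05 on the wild-type IL-4 arrays, against 9.53, 9.25, 9.53 and 9.51 on the wild-type vehicle arrays. Vehicle array 2 was low within its group but still above every IL-4 array, and Acads fell by 0.36 ± 0.07 (limma adjusted p = 0.00192). Its other probe also fell, by 0.32 (adjusted p = 0.0039). The knockout arrays had 9.13, 9.30, 9.09 and 9.33 with IL-4, against 9.35, 9.34, 9.42 and 9.20 with vehicle. These overlapped, with a difference of -0.12 ± 0.07 (adjusted p = 0.904).

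The later steps of the spiral were read through Hadhb, Hadh and Acaa2. Hadhb, the thiolase-bearing beta subunit of the trifunctional protein for long chains, had 9.50, 9.47, 9.87 and 9.75 on the wild-type IL-4 arrays, against 9.92, 10.02, 9.84 and 9.99 on the wild-type vehicle arrays. IL-4 array 7 lay within the vehicle range, and the difference of -0.30 ± 0.10 did not pass (limma adjusted p = 0.0536). Without that array it passed, at -0.37 (adjusted p = 0.0151). The knockout arrays had 10.13, 9.98, 10.03 and 10.13 with IL-4, against 9.99, 9.86, 9.73 and 10.17 with vehicle, and overlapped. Hadh, the hydroxyacyl-CoA dehydrogenase for shorter chains, lay between 7.82 and 7.88 on all 16 arrays, near the array minimum, and its second probe between 7.78 and 7.88, so its change could not be measured.

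Acaa2, the matrix thiolase that releases acetyl-CoA, had 11.07, 10.94, 10.73 and 10.89 on the wild-type IL-4 arrays, against 11.18, 11.34, 11.29 and 11.31 on the wild-type vehicle arrays. The groups were apart, and Acaa2 fell to 0.772 of the vehicle level (log2 difference -0.37 ± 0.06, limma adjusted p = 0.000666). Of its 3 other probes, 1 also fell, by 0.31 (adjusted p = 0.0188), and the others differed by -0.24 (adjusted p = 0.0843) and 0.05 (adjusted p = 0.827). The knockout arrays had 10.82, 10.64, 10.60 and 10.81 with IL-4, against 10.72, 10.69, 10.68 and 10.71 with vehicle. All 8 knockout values lay below every wild-type vehicle value, and they overlapped with each other.

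Counted by probe, 8 of the 17 fell and 0 rose with IL-4 in wild-type cells, against 7.32% of all probes that fell. With the mean of a gene's probes in place of the brightest one, all 6 falls still passed in limma, but that of Acaa2 was 0.22 (adjusted p = 0.00699), that of Acadm 0.20 (adjusted p = 0.0206) and that of Acadl 0.16 (adjusted p = 0.000748), and Hadhb passed as well (-0.30, adjusted p = 0.0458). In RNA of whole cultures, fewer cells of a type and less RNA per cell cannot be told apart.

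**Figure D2:**
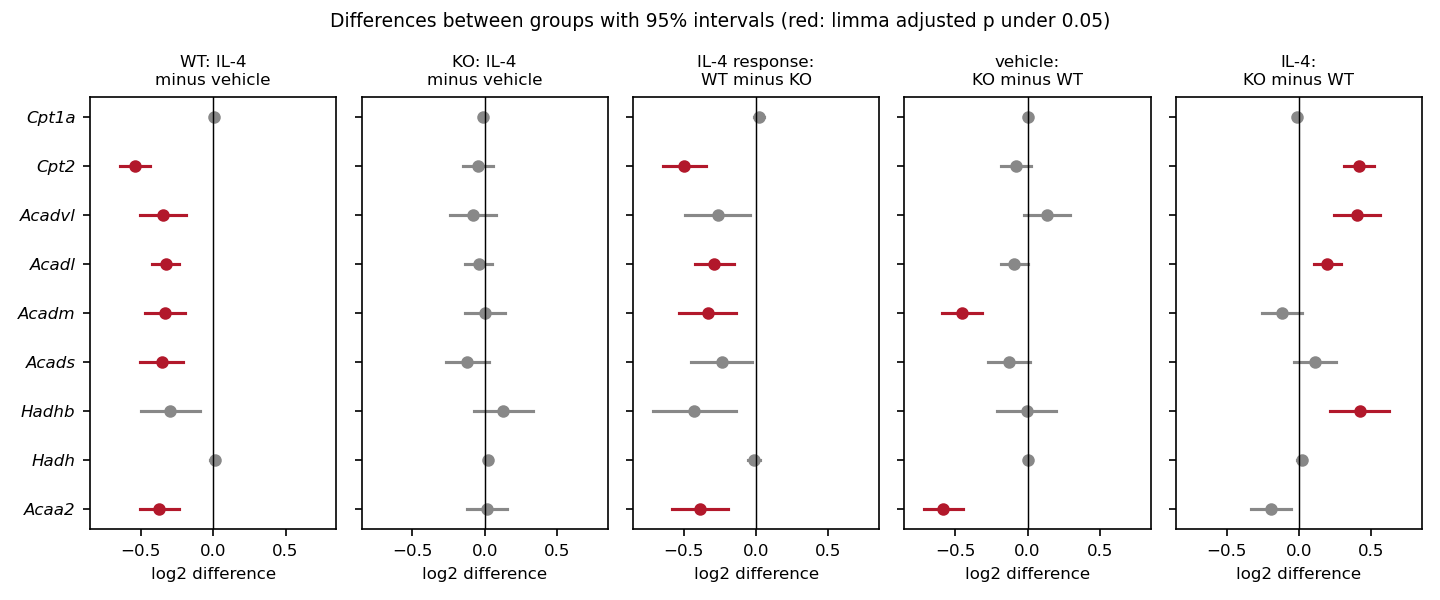
Log2 differences of the 9 measured enzymes with 95% intervals in 5 comparisons (red: limma adjusted p under 0.05). WT IL-4 minus WT vehicle is below 0 in red for 6 enzymes, KO IL-4 minus KO vehicle has 0 red points, and under IL-4 Cpt2, Acadvl, Acadl and Hadhb are higher in KO than in WT.

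The second comparison asked whether IL-4 changed these genes in cells without the receptor chain. In knockout cells 0 of 9 enzymes passed in limma in either direction, with adjusted p-values between 0.904 and 0.998, and 0 of the 9 had an unadjusted p under 0.05. The share called was 0% over all genes as well: 0 of 25697 probes passed, 1439 had an unadjusted p under 0.05, and a trended, robust variance model called 1 probe. The differences of the 7 brighter enzymes ran between -0.12 for Acads and 0.13 for Hadhb, with 95% bounds from -0.27 to 0.33. Without knockout vehicle arrays 2 and 3 the count stayed at 0 of 9.

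The difference of the IL-4 responses, wild type minus knockout, was tested directly and uses the arrays of both. It passed for 4 of 9 enzymes, all with the larger fall in wild type, against 5.27% of all genes in that direction and 15.8% of those averaging at least 8.5. Cpt2 differed most, by -0.50 ± 0.07 (limma adjusted p = 0.000244), followed by Acaa2 (-0.39 ± 0.09, adjusted p = 0.0124), Acadm (-0.33 ± 0.09, adjusted p = 0.0332) and Acadl (-0.29 ± 0.06, adjusted p = 0.00899). Hadhb (-0.43 ± 0.13, adjusted p = 0.071), Acadvl (-0.27 ± 0.10, adjusted p = 0.167) and Acads (-0.24 ± 0.10, adjusted p = 0.188) had the same sign and did not pass. Without knockout vehicle arrays 2 and 3, 2 enzymes passed, Cpt2 (-0.46, adjusted p = 0.00287) and Acadl (-0.36, adjusted p = 0.00271), as Acaa2 (adjusted p = 0.06) and Acadm (adjusted p = 0.174) no longer did. Acadm also failed when knockout vehicle array 2 or 3, knockout IL-4 array 1 or 2, wild-type vehicle array 2, 3 or 4, or wild-type IL-4 array 7 or 8 was left out (adjusted p between 0.0506 and 0.0731). Acads passed without wild-type vehicle array 2 (adjusted p = 0.0324), and Hadhb without knockout vehicle array 4 (adjusted p = 0.0207) or wild-type IL-4 array 7 (adjusted p = 0.0242).

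The other probes of these genes mostly did not pass in this test. The 3 other Acaa2 probes differed by -0.39 (limma adjusted p = 0.0523), -0.28 (adjusted p = 0.228) and 0.14 (adjusted p = 0.628), the other Acadm probe by -0.11 (adjusted p = 0.671), and the 2 other Acadl probes by -0.23 (adjusted p = 0.139) and -0.01 (adjusted p = 0.824). The other Acads probe passed, at -0.33 (adjusted p = 0.0497). With the mean of a gene's probes 3 enzymes passed: Cpt2, Acadl (-0.18, adjusted p = 0.00817) and Acads (-0.28, adjusted p = 0.0175), while Acaa2 (-0.23, adjusted p = 0.0602) and Acadm (-0.22, adjusted p = 0.0929) did not.

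The third comparison set the genotypes side by side under vehicle, with no cytokine added. It shares its arrays with the 2 responses above and with their difference, so its calls are not independent of those. Acaa2 and Acadm were lower in knockout cells, and the other 7 measured enzymes did not pass. Acaa2 averaged 10.70 ± 0.02 in knockout cells and 11.28 ± 0.07 in wild-type cells (SD, n = 4 each), a log2 difference of -0.58 ± 0.06 (SE; limma adjusted p = 0.000172) that 3 of its 4 probes shared past the test. Acadm averaged 12.19 ± 0.10 in knockout cells and 12.64 ± 0.09 in wild-type cells, a difference of -0.45 ± 0.06 (adjusted p = 0.00151), while its dimmer probe differed by -0.04 (adjusted p = 0.89). These 2 of 9 compare with 1.85% of all genes called lower, and with 5.71% of those averaging at least 8.5. Both calls held without knockout vehicle arrays 2 and 3 (adjusted p = 0.0062 for Acaa2 and 0.0277 for Acadm). They also held with the mean of a gene's probes, where the differences were -0.38 (adjusted p = 0.000793) for Acaa2 and -0.25 (adjusted p = 0.0228) for Acadm. With only the groups compared and a replicate block Acadm did not pass (adjusted p = 0.0597). Cpt2 averaged 11.01 ± 0.05 in knockout cells and 11.09 ± 0.02 in wild-type cells. All its knockout arrays were the lower, but the difference of -0.08 ± 0.05 did not pass (adjusted p = 0.545). Groups were apart in this direction for 3 of 9 enzymes, against 4.88% of all genes, and without those 2 arrays for 4 of 9, against 12.7%. For Acadvl the knockout mean was the higher, but the difference did not pass (0.14 ± 0.07, adjusted p = 0.474). For Hadhb the means were nearly equal (-0.0050 ± 0.095, adjusted p = 0.993).

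Under IL-4 the genotypes differed in other enzymes. Cpt2, Acadvl, Acadl and Hadhb were higher in knockout cells, and 0 of 9 were lower. Over all genes 9.11% were called higher and 8.18% lower in the knockout, and the higher ones were 24.5% of those averaging at least 8.5, against 4 of the 7 enzymes at that level. Hadhb averaged 10.07 ± 0.08 in knockout cells and 9.65 ± 0.20 in wild-type cells (SD, n = 4 each), a difference of 0.42 ± 0.10 (SE; limma adjusted p = 0.00614). Cpt2 differed by 0.42 ± 0.05 (adjusted p = 2.11e-05), Acadvl by 0.40 ± 0.07 (adjusted p = 0.00129) and Acadl by 0.20 ± 0.04 (adjusted p = 0.00636). For all 4 the groups did not overlap, which 10.2% of all genes showed in this direction. Acaa2 had the opposite sign, at -0.19 ± 0.06 (adjusted p = 0.0569). Acadm (-0.12 ± 0.06, adjusted p = 0.303) and Acads (0.11 ± 0.07, adjusted p = 0.39) did not pass. Acadl differed by 0.11 with the mean of its probes (adjusted p = 0.00951), and its other probes, at 0.13 (adjusted p = 0.219) and 0.01 (adjusted p = 0.673), did not pass on their own. The 3 other probes of Acaa2 lay between -0.18 and -0.12, that of Acadm at 0.07 and that of Acads at 0.18, and did not pass. This comparison shares its arrays with the 2 responses above.

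The 4 group means thus came in different orders. Acaa2 and Acadm were highest in wild-type cells given vehicle and lower in the other 3 groups. Cpt2, Acadvl and Acadl had their lowest mean in wild-type cells given IL-4 (10.55 ± 0.11, 9.97 ± 0.07 and 8.49 ± 0.06), with the knockout means close to those of wild-type vehicle arrays. Hadhb was also lowest there. Acads averaged 9.21 ± 0.12 and 9.33 ± 0.09 in knockout cells given IL-4 and vehicle, and 9.10 ± 0.06 and 9.46 ± 0.14 in wild-type cells given IL-4 and vehicle, and of the 4 pairs of these groups that were tested only the wild-type pair passed. Whether these patterns differ between enzymes was not tested.

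**Figure D3:**
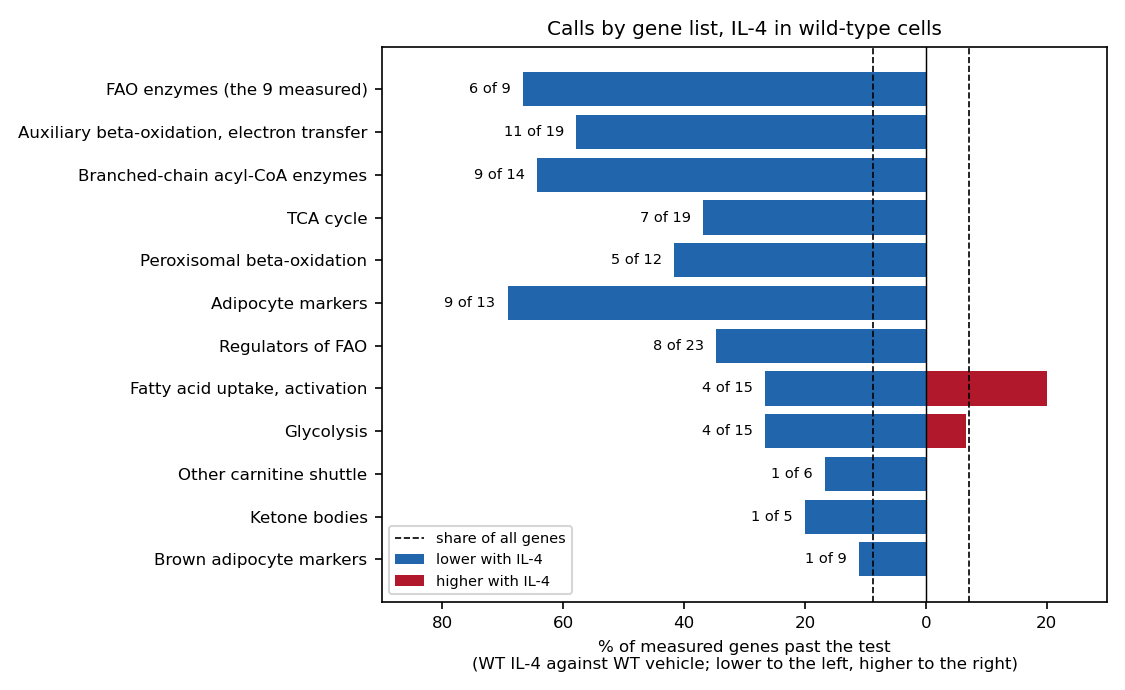
Percent of the measured genes of each list that were lower (left, blue) or higher (right, red) in WT FAPs given IL-4 than in WT FAPs given vehicle, at a limma adjusted p under 0.05. Dashed lines mark the shares of all genes, 8.79% lower and 7.14% higher. Among genes averaging at least 8.5 the shares, not drawn, were 24.8% lower and 17.6% higher. The counts beside the bars are those lower, such as 6 of 9 oxidation enzymes and 11 of 19 auxiliary enzymes.

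Genes that work beside these enzymes were counted in lists chosen by function. In wild-type cells given IL-4, 8.79% of all genes fell and 7.14% rose. Of the genes averaging at least 8.5, 24.8% fell and 17.6% rose. Of 19 measured auxiliary enzymes of beta-oxidation and of electron transfer, 11 fell with IL-4 in wild-type cells and 0 rose, with a median log2 difference of -0.20. Mcee, the methylmalonyl-CoA epimerase that handles odd-chain products, fell by 0.77 ± 0.07. Etfb, a subunit of the flavoprotein that takes electrons from the acyl-CoA dehydrogenases, fell by 0.62 ± 0.06. Hsd17b10, a hydroxyacyl-CoA dehydrogenase, fell by 0.58 ± 0.07, and Echs1, the short-chain hydratase, fell by 0.55 ± 0.07, with limma adjusted p-values of these 4 at or below 4.84e-05.

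The list of enzymes that break down branched-chain amino acids through acyl-CoA intermediates moved alike in the counts. Of its 14 genes 9 fell and 0 rose, with a median of -0.33. Among the 9 was Gcdh, a dehydrogenase of lysine and tryptophan breakdown (-0.33 ± 0.07, limma adjusted p = 0.004). It is counted with the branched-chain enzymes throughout. Ivd, the isovaleryl-CoA dehydrogenase of leucine breakdown, fell by 0.73 ± 0.04 (limma adjusted p = 5.9e-09), and Hibadh, of valine breakdown, fell by 0.51 ± 0.05 (adjusted p = 1.77e-06). Of 19 tricarboxylic acid cycle genes, which take up the acetyl-CoA, 7 fell and 0 rose (median -0.19), among them Idh3a, an isocitrate dehydrogenase subunit, by 0.50 ± 0.06, and Sdhb, a succinate dehydrogenase subunit, by 0.42 ± 0.08. Of 12 genes of peroxisomal beta-oxidation 5 fell and 0 rose (median -0.15), among them the thiolase Acaa1a, by 0.65 ± 0.08. Of 5 ketone body genes 1 fell, Bdh2 (-0.54), and 0 rose. These counts compare with falls of 8.79% of all genes and 24.8% of those averaging at least 8.5. The other 6 genes of the carnitine system had a median of 0.00 to 2 decimals and 1 call, Slc25a20, the carnitine-acylcarnitine carrier (-0.19 ± 0.05, limma adjusted p = 0.0204). That call ended without wild-type vehicle array 3 or 4 or wild-type IL-4 array 6 or 8, and with a trended, robust variance model (adjusted p = 0.0526). Crot, Cpt1c and Cpt1b averaged 7.81, 7.92 and 7.97, at or little above the array minimum, so the median says little of them. Crat, at 8.85, differed by -0.15 ± 0.06 (limma adjusted p = 0.153), and Slc22a5, at 8.31, by 0.05 ± 0.03 (adjusted p = 0.355).

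Genes upstream of oxidation moved both ways. Of 15 genes of fatty acid uptake and activation 3 rose and 4 fell with IL-4 in wild-type cells (median -0.02). Acsl5, a long-chain acyl-CoA synthetase, rose by 0.42 ± 0.04 (limma adjusted p = 2.12e-06), while Fabp5, a fatty acid binding protein, fell by 0.65 ± 0.07 (adjusted p = 1.31e-05) and Dbi, the acyl-CoA binding protein, fell by 0.34 ± 0.05 (adjusted p = 0.000274). Of 23 regulators 8 fell and 0 rose (median -0.04): Ppargc1b, a coactivator of mitochondrial genes, fell by 0.60 ± 0.07 (adjusted p = 4.02e-05), Lpin1 by 0.40 ± 0.05 (adjusted p = 3.8e-05), and Pparg, the adipogenic nuclear receptor, by 0.26 ± 0.05 (adjusted p = 0.00215). Acaca, the acetyl-CoA carboxylase that makes the inhibitor of the carnitine entry step, also fell, by 0.36 ± 0.08 (adjusted p = 0.00423). Of 15 glycolysis genes 4 fell and 1 rose, Pfkp (0.36), a phosphofructokinase. Over all genes 8.79% fell and 7.14% rose, and of those averaging at least 8.5, 24.8% fell and 17.6% rose. In knockout cells 0 genes of each of these lists passed.

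Where several probes of a gene were averaged, the falls of Fabp5 (0.33), Dbi (0.14), Lpin1 (0.13), Sdhb (0.21) and Slc25a20 (0.09) and the rise of Pfkp (0.14) were smaller and still passed in limma.

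In the test of the difference of the responses, 7 of 19 auxiliary enzymes, 5 of 14 branched-chain enzymes and 4 of 19 tricarboxylic acid cycle genes passed with a lower response in wild type, and 0 with the opposite sign, against 5.27% of all genes lower and 4.75% higher. Of the genes averaging at least 8.5, 15.8% were lower in this test and 11.9% higher. Other lists had calls of both signs: 3 lower and 1 higher of 12 peroxisomal genes, 4 lower and 2 higher of 15 uptake genes, and 2 lower and 1 higher of 15 glycolysis genes. The higher peroxisomal gene, Acox2, averaged 7.83, and Slc27a3 among the higher uptake genes 7.87, both near the array minimum. Echs1 differed by -0.57 ± 0.10 (limma adjusted p = 0.00154), Ivd by -0.72 ± 0.06 (adjusted p = 6.71e-07) and Sdhb by -0.52 ± 0.11 (adjusted p = 0.00666). Without knockout vehicle arrays 2 and 3 the lower calls were 5 auxiliary, 4 branched-chain, 2 tricarboxylic acid cycle, 1 peroxisomal, 2 uptake and 1 glycolysis gene, and the higher ones were 2 uptake genes. Without them Echs1 differed by -0.61 (adjusted p = 0.00402), Ivd by -0.75 (adjusted p = 8.79e-06) and Sdhb by -0.44 (adjusted p = 0.047).

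Under vehicle 2 of 19 auxiliary enzymes, 3 of 14 branched-chain enzymes, 2 of 12 peroxisomal genes and 0 of 19 tricarboxylic acid cycle genes were lower in the knockout, and 0 were higher, against 1.85% of all genes lower and 1.42% higher. The peroxisomal thiolase Acaa1b differed most among these, by -0.55 ± 0.06 (adjusted p = 9.25e-05). Without knockout vehicle arrays 2 and 3 the counts were 1, 2, 1 and 0, and Acaa1b differed by -0.59 (limma adjusted p = 0.00184). With all arrays, 5.71% of the genes averaging at least 8.5 were lower in the knockout under vehicle and 4.43% higher. Under IL-4, 3 of 19 auxiliary enzymes, 7 of 14 branched-chain enzymes and 8 of 19 tricarboxylic acid cycle genes were higher in knockout cells and 0 were lower, against 9.11% of all genes higher and 8.18% lower, with Echs1 at 0.73 ± 0.07 (adjusted p = 2.38e-06). Among the branched-chain calls, Hibch averaged 7.80, near the array minimum, and differed by 0.05 ± 0.01 (limma adjusted p = 0.0354). Of the genes averaging at least 8.5, 24.5% were higher in the knockout under IL-4 and 20% lower. Of 12 peroxisomal genes 1 was higher there, Acaa1a (0.56 ± 0.08, adjusted p = 8.82e-05), and 2 were lower, Acaa1b (-0.36 ± 0.06, adjusted p = 0.000387) and Acox2, a branched-chain acyl-CoA oxidase near the array minimum (-0.04 ± 0.01, adjusted p = 0.0155). The Acox2 call ended with a trended, robust variance model (adjusted p = 0.0846), with only the groups compared (adjusted p = 0.0673), and without knockout IL-4 array 2 (adjusted p = 0.0521) or wild-type IL-4 array 8 (adjusted p = 0.0505).

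Most adipocyte markers moved with the enzymes. Of 13 measured markers 9 fell and 0 rose with IL-4 in wild-type cells, with a median of -0.39, and Aqp7, the adipocyte glycerol channel, fell by 0.74 ± 0.07 (limma adjusted p = 1.85e-06), or by 0.49 with the mean of its probes. Over all genes 8.79% fell, and over those averaging at least 8.5, as 8 of the 13 did, 24.8%. The mean of the 13, each centred on its own average, was -0.21 to -0.16 on the wild-type IL-4 arrays, against 0.12 to 0.15 on the wild-type vehicle arrays. It was -0.02 to 0.04 on the knockout IL-4 arrays, against 0.02 to 0.04 on the knockout vehicle arrays. Adipoq, the adipocyte hormone adiponectin, averaged 12.63 over all arrays and the lipid droplet coat Plin1 8.91, while Retn and Trarg1 lay near the array minimum. Lep (7.88) and Acvr1c (7.92) lay little above it and did not pass with IL-4 in wild-type cells. Fabp4 (7.89) and Cd36 (7.84), which adipocytes express, were counted in the uptake list. They did not pass there either (-0.03, limma adjusted p = 0.49, and -0.01, adjusted p = 0.818). Under vehicle 3 of the 13 were lower in the knockout, among them Plin4 by -0.49 ± 0.09 (adjusted p = 0.00951), and under IL-4 6 were higher. Adipoq (0.06 ± 0.08, limma adjusted p = 0.842) and Plin1 (0.01 ± 0.08, adjusted p = 0.982) did not pass under vehicle. The shares of all genes were 1.85% lower under vehicle and 9.11% higher under IL-4, and of the brighter genes 5.71% and 24.5%. Without knockout vehicle arrays 2 and 3 the count under vehicle was again 3 of 13, with Plin4 at -0.51 (adjusted p = 0.0391). Brown adipocyte markers were mostly not measured above the minimum: 7 of 9 lay near it, including Ucp1, the uncoupling protein, and Cidea. Cox7a1, a respiratory chain subunit of that list, fell with IL-4 in wild-type cells by 0.25 ± 0.06 (adjusted p = 0.00891). Cox8b, the brightest of the list at 10.45, did not pass (-0.06 ± 0.09, limma adjusted p = 0.805). Under vehicle 2 of the 9 were lower in the knockout, with or without knockout vehicle arrays 2 and 3. The part of adipocyte content in the enzymes' differences was not tested.

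FAP markers moved both ways. Of 14, 6 rose and 3 fell with IL-4 in wild-type cells (median 0.09), against 7.14% of all genes that rose and 8.79% that fell, and 17.6% and 24.8% of those averaging at least 8.5. Their centred mean was -0.14 to -0.08 on the wild-type vehicle arrays, below every other array. It was -0.03 to 0.08 on the wild-type IL-4 arrays. On the knockout arrays it was 0.05 to 0.08 with IL-4 and -0.02 to 0.07 with vehicle. Under vehicle 2 of the 14 were higher in the knockout and 1 lower. Of all genes 1.42% and 1.85% were, and of the brighter genes 4.43% and 5.71%. Without knockout vehicle arrays 2 and 3 the counts were 1 and 1. Of the other cell types' markers, 1 each of 10 myogenic, 10 leukocyte and 9 endothelial markers fell with IL-4 in wild type. The leukocyte call was Lyz2, a lysozyme of macrophages (-1.07, or -0.42 with the mean of its probes), while the defining markers Ptprc and Adgre1 lay near the array minimum.

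**Figure D4:**
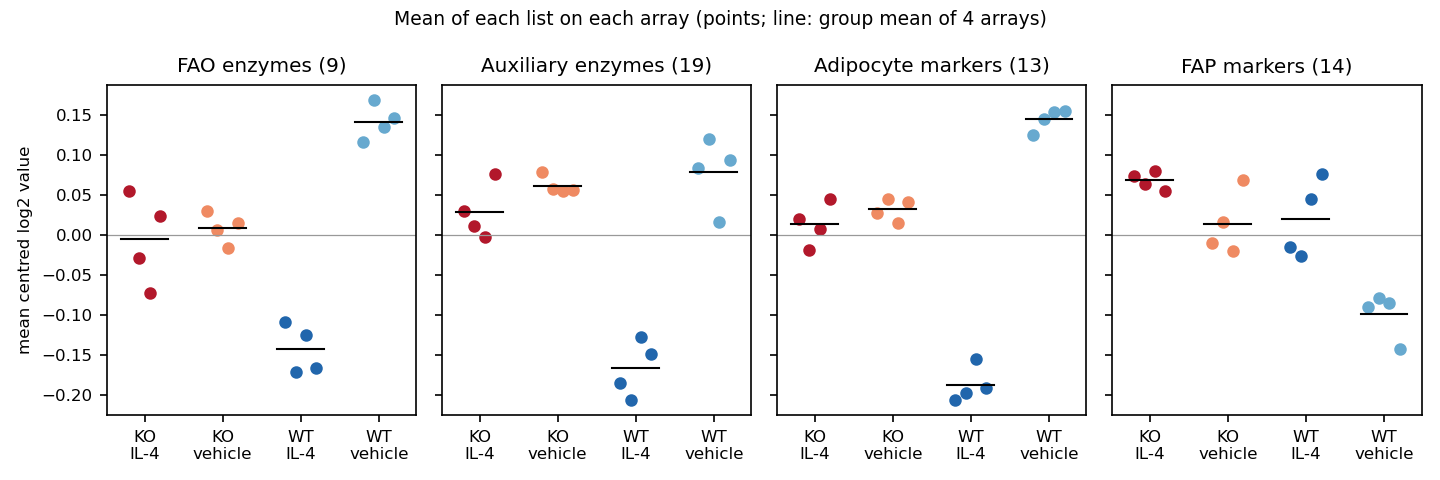
Mean over a list's measured genes of the log2 value centred on each gene's own mean over 16 arrays, per array (points) and group (line), for the 9 oxidation enzymes, 19 auxiliary enzymes, 13 adipocyte markers and 14 FAP markers. Oxidation enzymes run from -0.17 to -0.11 on WT IL-4 arrays and from 0.12 to 0.17 on WT vehicle arrays, with both KO groups between. Adipocyte markers show the same order. FAP markers are lowest on WT vehicle arrays (-0.14 to -0.08).

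The mean of the 9 enzymes, each centred on its own average, lay between -0.17 and -0.11 on the wild-type IL-4 arrays, against 0.12 to 0.17 on the wild-type vehicle arrays. The knockout arrays lay in between, at -0.07 to 0.05 with IL-4 and -0.02 to 0.03 with vehicle. This mean joins unlike orders, as the knockout means of Acaa2 and Acadm lay below those of wild-type cells given IL-4. For Acadvl they lay above the mean of wild-type cells given vehicle. The averaged profile also includes Cpt1a and Hadh, near the array minimum. Among 3878 other genes averaging at least 8.5, those with the smallest root mean square distance to this profile over 16 arrays were Uqcr10, a subunit of respiratory complex III (0.0390), Dxo, Rilp, Tm2d3, Asb13, Apobec1, Tefm, a mitochondrial transcription elongation factor, and Higd2a, an assembly factor of the respiratory chain (0.0532). The median distance of all these genes was 0.155, and a gene with no change over the arrays would lie at 0.105. The nearest genes to Acaa2 alone were Acaa1b, the peroxisomal thiolase (0.0986), Mrpl4, a mitochondrial ribosomal protein, Trf, transferrin, Lpcat3, Ppcs, an enzyme of coenzyme A synthesis, and Mpv17, a mitochondrial inner membrane protein (0.133), against a median of 0.278. A gene with no change would lie at 0.249 from Acaa2. These distances describe likeness over the same arrays and carry no test.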

How the data were processed

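RNA of cultured FAPs was hybridised to 16 Illumina bead arrays, 4 per group, per the labels, whose titles gave the groups. The authors deposited normalized values, read here as log2 from their range. Once sorted, values differ between arrays by 0.00059 or less, which is what quantile normalization leaves. The sources used here do not state the software, log base, background correction or detection calls. The number of arrays limits the precision.

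From the deposited values, R 4.3.3 and limma 3.58.1 fitted 1 mean per group to the 16 arrays, leaving 12 residual degrees of freedom, and moderated the variances by empirical Bayes. Two-sided p-values were adjusted over the 25697 probes by Benjamini-Hochberg and called under 0.05. The platform annotation gave 1 symbol to 23978 probes and none here to 1719, and 23962 probes matched the RefSeq table by Entrez number. Enzymes and the 15 other lists (202 of 228 genes measured) were chosen with earlier results of these data known. All members were named, and in each other list up to 4 rising and 4 falling genes with the largest change past the threshold, any defining marker, and the genes most like the members. The main fit did not pair arrays by the replicate numbers in the titles. Same-numbered knockout arrays correlated at -0.27 to 0.18 between treatments, which cannot settle whether they share a source. Alternatives were median centring, a filter on dim probes (mean of at least 8), an offset of 50, a trended, robust variance model, array weights, only the groups compared, the mean of a gene's probes, a replicate block and each array left out; leaving out knockout vehicle arrays 2 and 3 together was chosen after seeing the data. The code was tested on simulated data. Figures were drawn with matplotlib 3.10.9.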

Additional observations from a re-analysis of the deposited data

Results flagged for a closer look

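Acads on wild-type vehicle array 2 was 9.25, while the other 3 arrays of its group lay at 9.51 to 9.53. Of 36 groups of 4 arrays checked for a single far value, 1 was picked out, and chance alone picks about 1 in 20. The IL-4 response differed between wild-type and knockout cells, as wild type minus knockout on the log2 scale, for Cpt2 by -0.50, for Acaa2 by -0.39, for Acadm by -0.33 and for Acadl by -0.29 (the limma adjusted p-values stand above).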

How the results depend on the processing

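The 6 falls with IL-4 in wild-type cells, the 4 higher levels in the knockout under IL-4, the lower Acaa2 in the knockout under vehicle, and the Cpt2 and Acadl differences of response kept their direction and passed under every alternative run on them, although with the mean of a gene's probes the values of Acaa2, Acadm and Acadl were smaller, as given above. That setting also ended the Acaa2 (limma adjusted p = 0.0602) and Acadm (adjusted p = 0.0929) differences of response, brought in that of Acads (adjusted p = 0.0175), and let Hadhb fall with IL-4 in wild-type cells (adjusted p = 0.0458). With IL-4 in wild-type cells, 6 to 7 enzymes fell when each array was left out, and Hadhb joined them with the filter on dim probes (limma adjusted p = 0.015), the offset (adjusted p = 0.0167), the trended, robust model (adjusted p = 0.00848) and array weights (adjusted p = 0.0471). Enzymes whose responses differed numbered 3 to 5 with an array left out and 2, in place of 4, without knockout vehicle arrays 2 and 3; Hadhb passed with the filter (adjusted p = 0.0204), the offset (adjusted p = 0.0242) and the trended model (adjusted p = 0.012). The replicate block was fitted to only the groups compared. Under vehicle this left 1 enzyme lower in the knockout in place of 2, with Acadm at an adjusted p of 0.0597, against 0.00903 with only the groups compared and no block, and it changed no other call of an enzyme. Over the whole table that comparison called 354 probes with the block, 532 with only the groups compared, 690 with all arrays and no block, 385 without knockout vehicle arrays 2 and 3, and 447, 426 and 456 without wild-type vehicle array 1, 2 or 4. Same-numbered arrays correlated at -0.11 to 0.06 between genotypes, and 2 of 8 were closest to their own number. Under IL-4, 1 enzyme in place of 0 (Acaa2) was lower in the knockout with the filter and with the offset, and 0 to 1 with an array left out: it passed without knockout IL-4 array 1 (adjusted p = 0.0386) or 4 (adjusted p = 0.0432) or wild-type IL-4 array 7 (adjusted p = 0.00711). Signs turned for differences near 0 that passed nowhere. With the mean of a gene's probes the difference was 0.018 for Acadl and -0.0043 for Hadh in knockout cells, and for Hadh 0.0058 between the responses and -0.00091 between the genotypes under IL-4. In knockout cells the IL-4 difference of Acadm was -0.0089 with array weights and -0.056 to 0.050 with an array left out, and that of Acaa2 -0.018 to 0.054. Without knockout vehicle arrays 2 and 3 it was -0.083 for Acadm, 0.028 for Acadl and -0.013 for Hadhb. Under vehicle, Hadhb differed by 0.0065 with array weights, 0.14 without those 2 arrays and -0.082 to 0.066 with 1 array left out, Hadh by -0.0068 to 0.013 and Cpt1a by -0.0021 to 0.0075. Cpt1a ran from -0.00092 to 0.017 with IL-4 in wild-type cells. Of the values of the other named genes, 28 of 733 for the wild-type response, 91 of 940 for the difference of responses, 40 of 323 for genotype under vehicle and 56 of 733 under IL-4 lost their call under some alternative, and 0 reversed. The cause was not tested. Signal near the array minimum limits what can be said of Cpt1a and Hadh.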
